A study of Mus musculus with 4 samples.

Results

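Genes of the Hippo pathway, 10 of the 28693 listed in the count matrices, were followed through the cells of mouse mammary glands: the kinases Stk3 and Stk4 (MST2 and MST1) and their scaffold Sav1, the LATS activators Mob1a and Mob1b, the kinases Lats1 and Lats2 themselves, and the upstream regulators Nf2 (Merlin), Wwc1 (KIBRA) and Ptpn14. They were chosen by symbol, and no value of theirs entered the choice of cells. The 4 libraries came from the glands of 4 adult nulliparous females, 2 WT and 2 LATS1/2 KO, with 1 library per mouse. WT animals were Lats1 f/f and Lats2 f/f with 1 copy of the Cre-dependent R26 lsl-EYFP reporter and no Cre, so the controls carried the floxed alleles too. LATS1/2 KO animals had the same floxed alleles and in addition Krt8-CreERT2, a tamoxifen-inducible Cre driven by the promoter of the luminal keratin Krt8. LATS1/2 KO replicate 1 had 1 copy of the reporter and replicate 2 had 2 copies. All 4 mice received 2 mg of tamoxifen on 5 days, and glands were taken 7 days after the last dose.

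The Hippo pathway is a kinase cascade that limits organ growth. MST kinases, held by SAV1, phosphorylate and activate LATS kinases and their MOB1 co-activators, and LATS kinases phosphorylate the transcriptional co-activators YAP and TAZ, which are then kept out of the nucleus. NF2, KIBRA and PTPN14 sit upstream: NF2 and KIBRA bring the kinases together at the membrane, and PTPN14 binds both YAP and KIBRA. YAP and TAZ act through TEAD factors, and Lats2 and Nf2 are counted among the genes they activate, a negative feedback.

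The genes lie apart in the genome (GENCODE, build GRCm38). Lats1 is on chromosome 10 (7681214 to 7716460, plus strand), Lats2 on chromosome 14 (57689662 to 57758388, minus strand) and Ptpn14 on chromosome 1 (189728268 to 189876695, plus strand). Stk3 is on chromosome 15 (34875496 to 35178921, minus), Stk4 on chromosome 2 (164070322 to 164155524, plus), Sav1 on chromosome 12 (69965012 to 69987002, minus), Mob1a on chromosome 6 (83326016 to 83343776, plus) and Mob1b on chromosome 5 (88720855 to 88764220, plus). Nf2 (4765845 to 4849536) and Wwc1 (35838400 to 35980527) are both on the minus strand of chromosome 11. The counts were of transcript 3′ ends. No 31-base stretch within the last 500 bases of an annotated Stk3, Stk4, Mob1a, Mob1b, Lats1 or Lats2 transcript was shared with another of the 10 genes, so the paralogues could be told apart. For Lats2, 38.6% of these stretches were also found in another gene, nearly all in Gm49361, which overlaps it on the same strand, and the level of Lats2 is uncertain to that extent. Reads from the 3′ end do not show whether the floxed exons were removed: Lats1 and Lats2 counts measure transcripts of these genes and not intact coding sequence.

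The promoters of Lats1, Lats2 and Ptpn14 are shown because these 3 genes carry the main differences below. Each line is the 250 bases before the RefSeq transcription start (build GRCm38.p6, 5′ to 3′ on the strand of the gene), at chr10:7680959-7681208 for Lats1, chr14:57746124-57746373 for the first of 2 listed Lats2 starts and chr1:189728018-189728267 for Ptpn14. Capitals mark the M-CAT motif bound by TEAD factors, searched as GGAATG or its reverse complement CATTCC.
Lats1: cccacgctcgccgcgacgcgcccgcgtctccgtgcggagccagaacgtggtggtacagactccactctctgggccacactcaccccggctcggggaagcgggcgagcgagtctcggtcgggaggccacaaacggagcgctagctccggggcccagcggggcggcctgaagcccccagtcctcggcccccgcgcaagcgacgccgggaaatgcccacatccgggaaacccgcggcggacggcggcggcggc
Lats2: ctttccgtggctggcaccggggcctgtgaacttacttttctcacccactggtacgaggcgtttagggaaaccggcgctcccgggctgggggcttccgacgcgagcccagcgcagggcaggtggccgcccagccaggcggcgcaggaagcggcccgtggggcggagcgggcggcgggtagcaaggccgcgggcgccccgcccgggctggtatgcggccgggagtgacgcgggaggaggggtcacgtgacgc
Ptpn14: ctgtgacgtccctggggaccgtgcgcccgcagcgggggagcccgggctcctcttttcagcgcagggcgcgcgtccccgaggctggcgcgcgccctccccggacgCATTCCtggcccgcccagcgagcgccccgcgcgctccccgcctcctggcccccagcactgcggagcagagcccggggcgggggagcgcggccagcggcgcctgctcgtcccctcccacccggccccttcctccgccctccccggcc
The Ptpn14 sequence held the motif, with its first base at position -146 from the start. The Lats1 sequence did not hold these letters, and in Lats2 they appeared only in transcribed sequence, from base 5. Promoters were listed for 9 of the 10 genes, Stk3 being the one without an entry, and 3 of the 9 held the motif in the 250 bases, namely Sav1, Mob1a and Ptpn14. Counted by promoter, 3 of the 11 listed for these genes held it, against 12.6% of all 32851 promoters listed. A match is only a match of letters.

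Of 20324 barcodes, 18200 cells passed the study's limits on genes and mitochondrial reads, with 38792520 to 46810771 UMIs per library. Cells were gated into lineages by lists of 10 marker genes each, none of them among the 10 genes studied, and 16691 cells were luminal, basal, fibroblast, endothelial or macrophage. Gated luminal cells carried a mean of 8.07 luminal markers, fibroblasts 8.09 of their own, endothelial cells 7.73 and macrophages 7.28, while gated basal cells carried 5.36 basal and 3.61 luminal markers. Luminal cells numbered 4332 and 3189 in WT and 3081 and 2751 in LATS1/2 KO, and basal cells 193, 162, 300 and 375. WT glands gave few stromal cells: 57 and 23 fibroblasts, 39 and 34 endothelial cells and 3 macrophages in each library, against 310 and 929, 214 and 212, and 189 and 295 in LATS1/2 KO. The share of UMIs put down to free RNA was 3.48% to 8.18% in luminal, 9.85% to 20.2% in basal, 2.47% to 7.37% in fibroblast and 1.82% to 11.6% in endothelial sums. This share is an estimate from a few genes of other lineages, taken as not expressed in the lineage itself. Doublets, which were not removed, would count in it too. Pairs of libraries shared 4 to 12 cell barcodes, at most 0.267% of the smaller library. UMIs were summed per lineage and library before any test, so n is 2 mice per group throughout, and nothing in the labels links a WT mouse to a LATS1/2 KO mouse.

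In WT glands Wwc1, Lats2 and Ptpn14 were divided between lineages, while the other genes passed no test between luminal cells and another lineage. Levels here are CPM, the UMIs of a gene scaled to the same UMI total in every sum. Wwc1 was the luminal member, with 55.6 and 59.3 CPM in luminal cells, 22.5 and 31.6 in basal cells, 4.43 and 0 in fibroblasts and 0 in both endothelial sums. The libraries of luminal, basal and fibroblast cells did not overlap. Ptpn14 ran the other way, at 159 and 194 CPM in endothelial cells, 94.0 and 135 in basal cells, 4.72 and 6.21 in luminal cells and 8.86 and 0 in fibroblasts. Endothelial and basal cells did not overlap with each other or with luminal cells, while fibroblasts, with 2 and 0 Ptpn14 UMIs, could not be placed against luminal cells. Lats2 was likewise highest in endothelial cells, and fell in the order of endothelial (74.5 and 92.0), fibroblast (44.3 and 31), basal (28.8 and 27.3) and luminal cells (13.9 and 15.0), with no overlap between neighbours. The fibroblast values rest on 10 and 3 UMIs, so their place above basal cells is uncertain.

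Tests within the WT mice gave these differences their size. Between luminal and basal cells, 3 of 10 genes passed (adjusted p under 0.05, edgeR's quasi-likelihood test with Benjamini-Hochberg adjustment and the mouse as a block), where 29.0% of all genes tested did. On the log2 scale Ptpn14 was lower in luminal cells by -4.31 ± 0.19 (SE, adjusted p = 1.75e-10) and Lats2 by -0.90 ± 0.27 (adjusted p = 0.0205, and 0.165 with DESeq2), and Wwc1 was higher by 1.17 ± 0.21 (adjusted p = 0.000674). Between luminal and endothelial cells 3 of 10 passed, against 14.4% of all genes. Ptpn14 (-4.76 ± 0.27, adjusted p = 0.00162) and Lats2 (-2.27 ± 0.29, adjusted p = 0.0119) were lower in luminal cells, where the median gene stood at 0.41. Wwc1 passed as well (adjusted p = 0.0197, and 0.389 with DESeq2), and with no endothelial UMI it was at least 7.59-fold higher in luminal cells, taking 3 UMIs over both endothelial sums as the floor. Between luminal cells and fibroblasts 1 of 10 passed, Wwc1 (4.47 ± 0.85, from 1 and 0 fibroblast UMIs), against 22.2% of all genes and a median gene at 0.51 (0.39 with another size factor, RLE). Lats2 did not pass there (adjusted p = 0.141).

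For the other genes no difference from luminal cells passed, which on few stromal UMIs does not show that their levels were even. Lats1 lay at 26.6 and 51.6 CPM in WT fibroblasts, 19.9 and 30.7 in endothelial cells, 22.5 and 25.9 in basal cells and 24.0 and 23.9 in luminal cells, and neighbours in this order of the means overlapped. Stk4 (19.4 and 20.3 in luminal cells), Mob1a (42.5 and 46.4), Mob1b (34.7 and 34.7), Nf2 (20.6 and 21.3), Stk3 (20.2 and 20.7) and Sav1 (25 and 22.9) did not pass the test between luminal cells and any of the other 3 lineages. Sav1 came nearest, at 94.4 and 51.1 CPM in endothelial cells (luminal minus endothelial -1.34 ± 0.33, adjusted p = 0.0635). Stromal values of WT rest on 0 to 38 UMIs per gene and library, and differences there were detectable only where they were large.

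**Figure D1:**
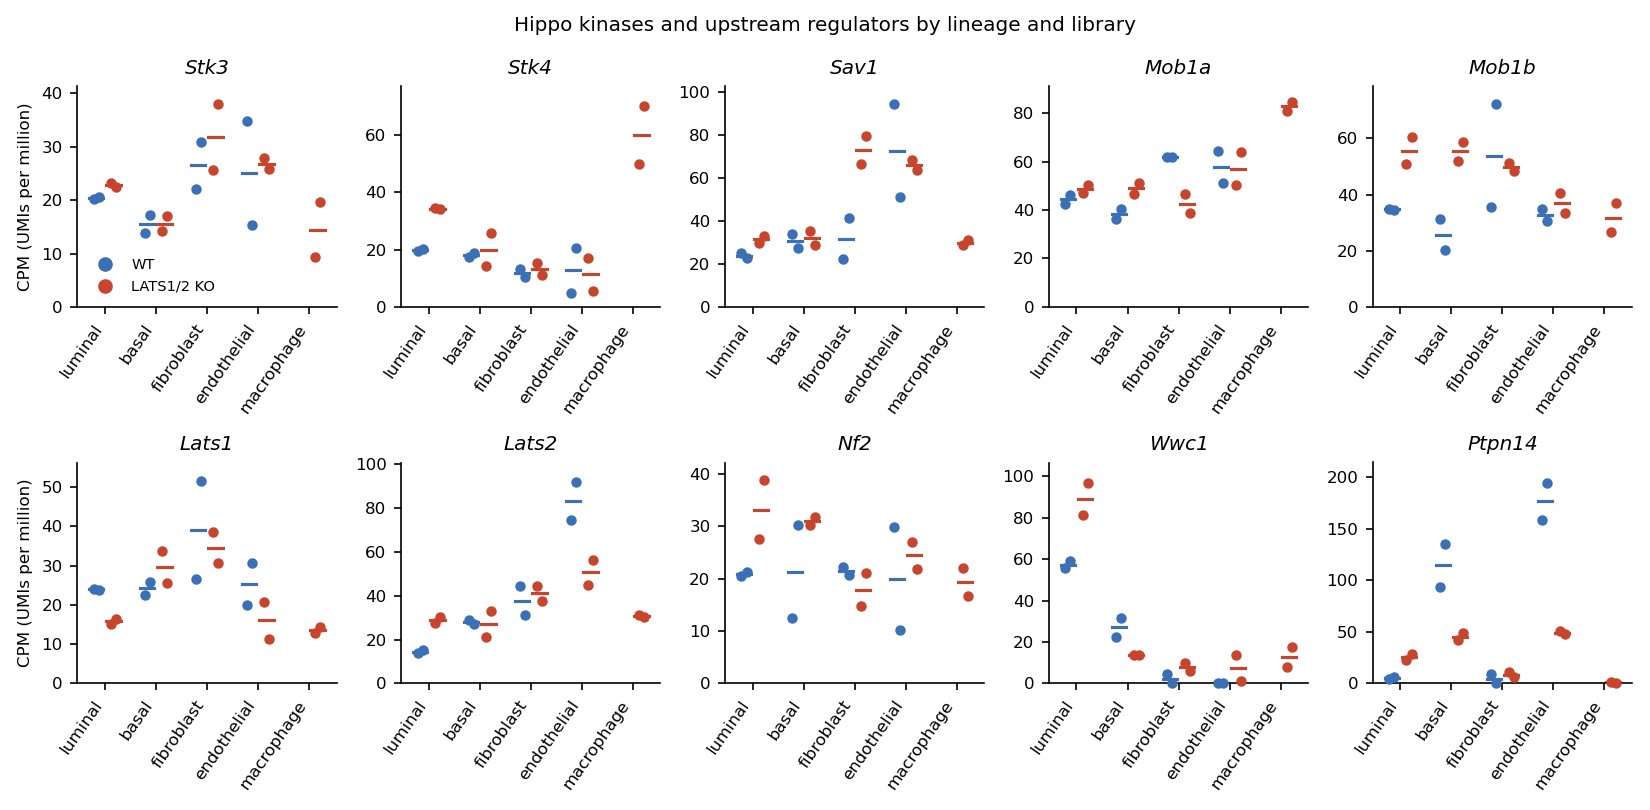
Level of each gene in 5 lineages, in CPM (UMIs scaled to the same total in every sum, linear axes from 0), with 1 point per library and a bar at the mean of 2; WT macrophages, with 3 cells per library, are not drawn. Wwc1 was highest in luminal cells, Ptpn14 and Lats2 in endothelial cells, and in LATS1/2 KO the Ptpn14 levels of luminal, basal and endothelial cells lay between 22.6 and 50.4 CPM.

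Macrophages could be read in LATS1/2 KO only, without a test. Stk4, which is known for its part in immune cells, was at 49.8 and 70.2 CPM there, above the luminal, basal, fibroblast and endothelial sums of LATS1/2 KO (at most 34.4), and Mob1a at 81.1 and 84.5 CPM was likewise above those 4 lineages (at most 63.9). Ptpn14 gave 1 UMI in each of the 2 macrophage sums (1.16 and 0.754 CPM). Stk3 (9.27 and 19.6), Lats1 (12.7 and 14.3) and Sav1 (29.0 and 30.9) had lower LATS1/2 KO means in macrophages than in those 4 lineages. Free RNA was estimated at 9.49% and 10.3% of these sums, and its part in the low values was not tested.

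Luminal cells are the cells in which Krt8-CreERT2 acts. In them 6 of 10 genes passed the test between LATS1/2 KO and WT, 5 higher and 1 lower, where 59.1% of all genes tested passed (8563 of 14496), so the number of genes called is no more than that of the transcriptome at large. Values from here on are normalised CPM, scaled by the trimmed mean of M values (TMM) within the comparison. With library totals alone the median gene of this comparison shifts by 0.21 on the log2 scale and 66.1% of calls are upward in place of 52.0%, so changes are relative to the bulk of genes. On that scale 8 of the 10 genes passed, Sav1 and Nf2 in addition, where 8775 of all 14496 genes tested did. No member called here turned its direction.

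The LATS kinases, the targets of the design, moved in opposite directions. Lats1 was 26.1 and 25.6 in WT and 14.3 and 15.2 in LATS1/2 KO, from 486 to 1075 UMIs per library. The groups did not overlap and Lats1 fell by 0.81 ± 0.09 on the log2 scale (SE, adjusted p = 0.0013), to 0.571 of the WT level. Lats2 was 15.0 and 16 in WT and 26.0 and 27.9 in LATS1/2 KO, and rose 1.73-fold (log2 0.79 ± 0.09, adjusted p = 0.00157). Counts of Lats2 3′ ends were thus higher in the luminal cells of LATS1/2 KO than of WT.

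Among the upstream regulators Ptpn14 changed most. It was 5.11 and 6.63 in WT and 21.2 and 26.5 in LATS1/2 KO, a 4.07-fold rise (log2 2.02 ± 0.18, adjusted p = 0.000777). Wwc1 went from 60.3 and 63.3 to 76.4 and 89.3 (log2 0.42 ± 0.10, adjusted p = 0.0164). Nf2 was 22.3 and 22.8 in WT and 25.8 and 35.7 in LATS1/2 KO, with the 2 mutant mice far apart, and did not pass (log2 0.45 ± 0.16, adjusted p = 0.0585). It passed without LATS1/2 KO replicate 1 (log2 0.65, adjusted p = 0.00838) and with DESeq2 (log2 0.44, adjusted p = 0.0442).

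In the MST module Stk4 rose and Stk3 did not pass. Stk4 was 21.0 and 21.7 in WT and 32.2 and 31.4 in LATS1/2 KO (log2 0.58 ± 0.08, adjusted p = 0.00266), while Stk3 was 21.9 and 22.1 against 21.8 and 20.7 (log2 -0.05 ± 0.08, adjusted p = 0.64). The MOB1 pair split in the same way. Mob1b was 37.6 and 37.0 in WT and 47.6 and 55.9 in LATS1/2 KO (log2 0.47 ± 0.10, adjusted p = 0.012), and Mob1a 46.1 and 49.5 against 44.2 and 46.6 (log2 -0.07 ± 0.08, adjusted p = 0.485). Sav1, at 27.1 and 24.4 against 28.0 and 30.6, did not pass (log2 0.18 ± 0.10, adjusted p = 0.154). The Wwc1 call was lost without either WT replicate (adjusted p = 0.0804 without replicate 1 and 0.0511 without replicate 2) and the Mob1b call without WT replicate 2 (adjusted p = 0.0544).

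**Figure D2:**
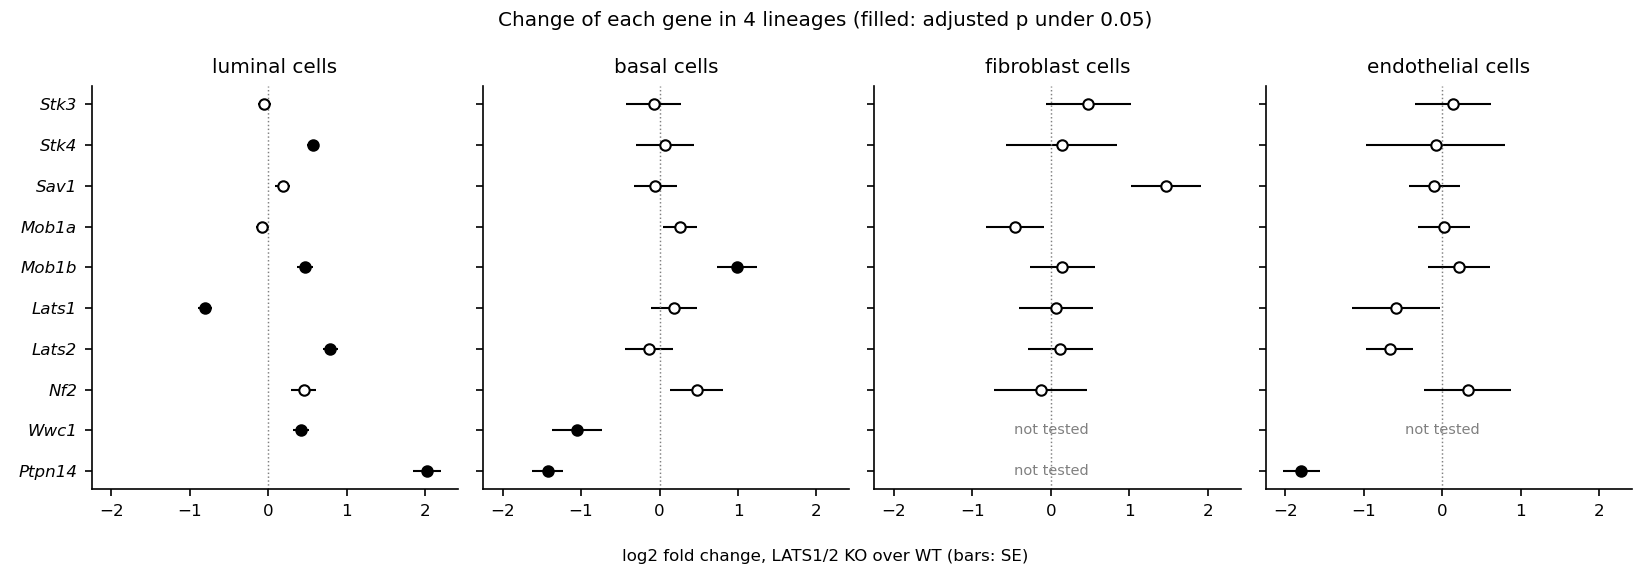
Change of each gene from WT to LATS1/2 KO in 4 lineages, as log2 fold change on the horizontal axis with SE bars; filled points had an adjusted p under 0.05 in edgeR's quasi-likelihood test with 2 mice per group. Ptpn14 rose in luminal cells (2.02) and fell in basal (-1.42) and endothelial cells (-1.80), and Lats1 fell in luminal cells (-0.81).

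Luminal cells are a mixture of hormone-receptor-negative (ER-) and hormone-receptor-positive (ER+) cells, and their balance differed between the groups. ER+ cells were 23.7% and 23.4% of luminal cells in WT and 13.8% and 5.53% in LATS1/2 KO, and cells assigned to neither class 6.05% and 7.02% against 19.4% and 16.7%. The difference of the LATS1/2 KO effect between ER- and ER+ cells passed for 4 of 10 genes (22.9% of all genes), a comparison chosen after the data were seen. Lats1 differed by -0.93 ± 0.22 (adjusted p = 0.0147): in ER- cells it was 28.8 and 27.8 in WT and 12.7 and 14.9 in LATS1/2 KO (log2 -1.04 ± 0.11, adjusted p = 0.000269), and in ER+ cells 22.5 and 21.5 against 20.7 and 16.7 (log2 -0.21, adjusted p = 0.396). The groups did not overlap in either class. EYFP was detected in 20.6% and 25.5% of ER- and in 15.3% and 34.2% of ER+ LATS1/2 KO cells. Its share was highest, at 36.0% and 49.5%, in LATS1/2 KO cells assigned to neither class, which are in neither the ER- nor the ER+ sums.

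Another 3 members differed between the luminal classes. Stk4 (0.56 ± 0.17, adjusted p = 0.0452) rose in ER- cells, from 19.0 and 19.1 to 31 and 29.3, and in ER+ cells was 25.3 and 24.7 against 25.6 and 25.1. Stk3 (0.69 ± 0.19, adjusted p = 0.0299) fell in ER+ cells, from 26.9 and 26.0 to 17.7 and 15.1 (log2 -0.66, adjusted p = 0.0268), and was 0.10 higher in ER- cells (adjusted p = 0.4). Mob1b (-0.52 ± 0.16, adjusted p = 0.041) rose in ER+ cells, from 25.4 and 26.0 to 38.4 and 39.1, and in ER- cells was 44.9 and 45.6 against 47.3 and 54.6 (adjusted p = 0.175). Without the mouse as a block its difference missed the threshold (adjusted p = 0.0553).

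The other genes did not pass that test of the difference. Ptpn14 rose in both classes, by 2.36 in ER- cells (adjusted p = 3.08e-05) and by 1.59 in ER+ cells (adjusted p = 0.0426), where WT mice stood at 7.06 and 9.74 and LATS1/2 KO mice at 14.3 and 39.7. Lats2 was 17.3 and 18.9 against 25.9 and 26.5 in ER- cells (log2 0.54, adjusted p = 0.00265) and 10.9 and 12.9 against 17.0 and 18.3 in ER+ cells (log2 0.56, adjusted p = 0.0693). Wwc1 in ER- cells was 66.0 and 78.9 against 72.1 and 82.3, with overlap (adjusted p = 0.513), and in ER+ cells 50.4 and 43.4 against 60.8 and 79.3 (adjusted p = 0.0432). Sav1 and Nf2, which did not pass over all luminal cells, did in ER- cells alone (log2 0.43 and 0.65, adjusted p = 0.00739 and 0.018). The part of the changed balance of ER- and ER+ cells in the values over all luminal cells was not tested separately.

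**Figure D3:**
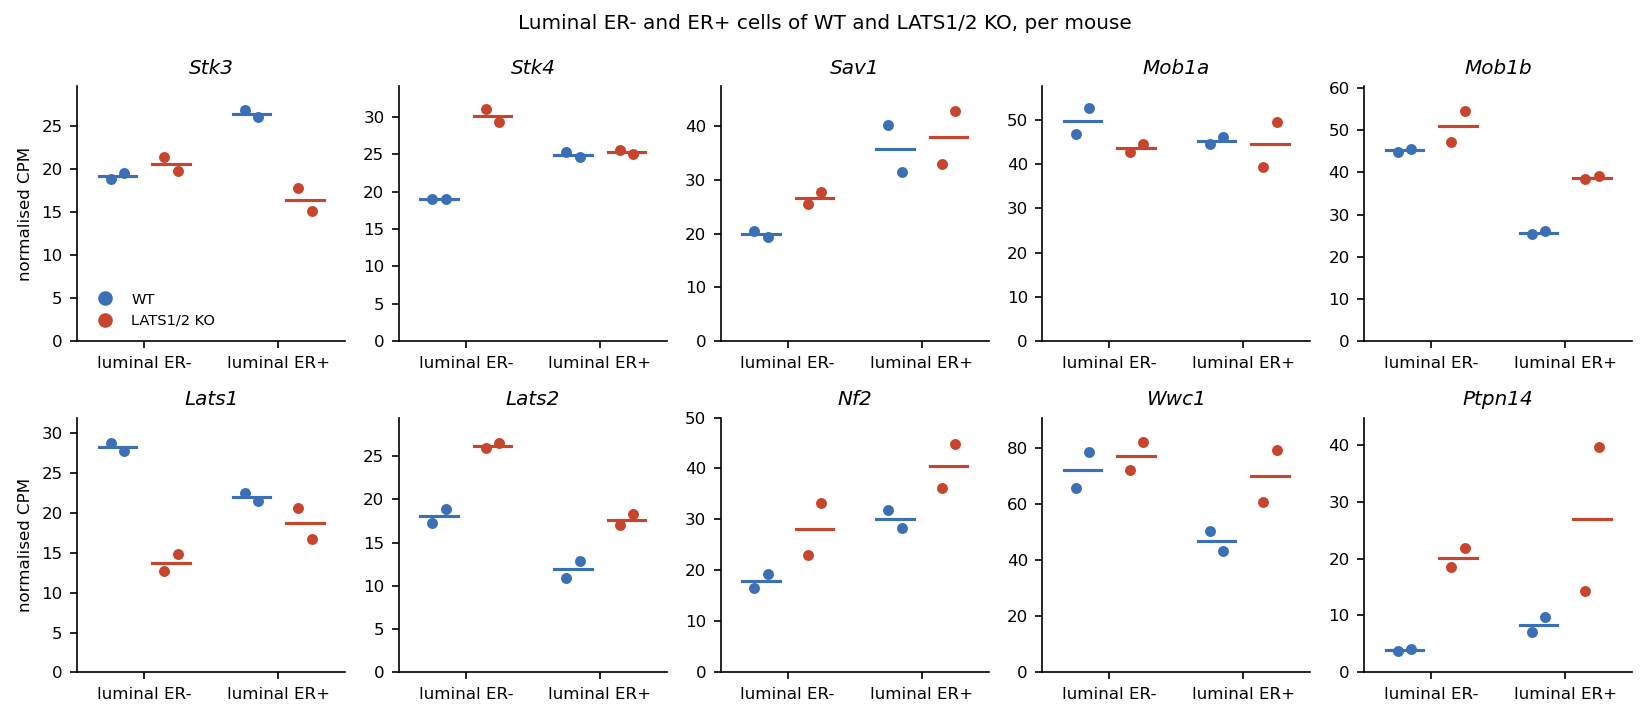
Normalised CPM (TMM within a class, linear axes from 0) of each gene in luminal ER- and ER+ cells, with 1 point per mouse and a bar at the mean of 2 mice. Lats1 in ER- cells was 28.8 and 27.8 in WT and 12.7 and 14.9 in LATS1/2 KO, while Stk4 in ER+ cells lay between 24.7 and 25.6 in all 4 mice.

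EYFP marks cells in which Cre was active, and its transcript was found in 705 of 3081 and 825 of 2751 LATS1/2 KO luminal cells, against 0.300% and 0.439% of WT luminal cells, which have no Cre. A cell with 0 EYFP UMIs may still be recombined: EYFP-positive cells were deeper, with median UMIs of 13528 and 15221 against 7468 and 7472 in EYFP = 0 cells. Between EYFP-positive and EYFP = 0 cells of the same mice, 4 of 10 genes passed, 3 higher and 1 lower, against 39.4% of all genes.

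Lats1 stepped down from WT to EYFP = 0 to EYFP-positive cells. It was 26.8 and 26.2 in WT, 17.1 and 19.2 in EYFP = 0 cells and 9.73 and 10.7 in EYFP-positive cells, with no overlap (EYFP-positive over EYFP = 0, log2 -0.83 ± 0.12, adjusted p = 0.000191; -0.81 and -0.84 in the 2 mice). Ptpn14 stepped up, from 5.26 and 6.80 through 16.9 and 19.6 to 31.3 and 37.1 (log2 0.89 ± 0.09, adjusted p = 2.43e-05). Wwc1 went from 62.0 and 65.0 in WT to 68.5 and 79.3 and to 97.4 and 108 (log2 0.46 ± 0.07, adjusted p = 0.000216), and Stk4 from 21.6 and 22.3 to 31.2 and 27.8 and to 36.5 and 37.8 (log2 0.33 ± 0.09, adjusted p = 0.0136).

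Lats2 showed no such step. It was 15.5 and 16.5 in WT, 26.3 and 28.6 in EYFP = 0 cells and 27.1 and 28.4 in EYFP-positive cells, and the difference between the EYFP classes was 0.01 ± 0.09 on the log2 scale (adjusted p = 0.95). Mob1b, at 38.7 and 38.0 in WT, was 50.5 and 60.5 in EYFP = 0 and 45.1 and 53.0 in EYFP-positive cells, and did not pass between them (log2 -0.18 ± 0.07, adjusted p = 0.067). Stk3, Sav1, Mob1a and Nf2 did not pass, with log2 differences of -0.07 to 0.20. The 4 called genes kept their calls when each cell was thinned to 2000 UMIs, where 2928 of all 10491 genes passed. They also kept them when EYFP-positive meant at least 2 UMIs, against 5921 of all 12996 genes. Mob1b passed there too (log2 -0.22, adjusted p = 0.0363). In ER- cells alone 6 passed, with Nf2 (log2 0.33, adjusted p = 0.00414) and Mob1b (log2 -0.22, adjusted p = 0.0267) in addition, against 5210 of all 12651 genes. Without the mouse as a block only Lats1 and Ptpn14 passed (Stk4 adjusted p = 0.102, Wwc1 adjusted p = 0.064), against 967 of all 13094 genes. With DESeq2 Stk4 did not pass (adjusted p = 0.192).

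Each EYFP class was also set against WT, an addition made after the data were seen. EYFP = 0 cells of LATS1/2 KO glands differed from WT luminal cells in 5 of the 10 genes, where 50.1% of all genes passed: Ptpn14 (log2 1.60, adjusted p = 0.00183), Lats2 (0.78, adjusted p = 0.00348), Mob1b (0.53, adjusted p = 0.0141) and Stk4 (0.43, adjusted p = 0.0203) were higher and Lats1 (-0.55, adjusted p = 0.0104) lower. EYFP-positive cells differed in 7 of 10, where 64.0% of all genes passed, with Ptpn14 at 2.51, Lats2 at 0.81 and Lats1 at -1.36. Both comparisons use the same WT sums.

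**Figure D4:**
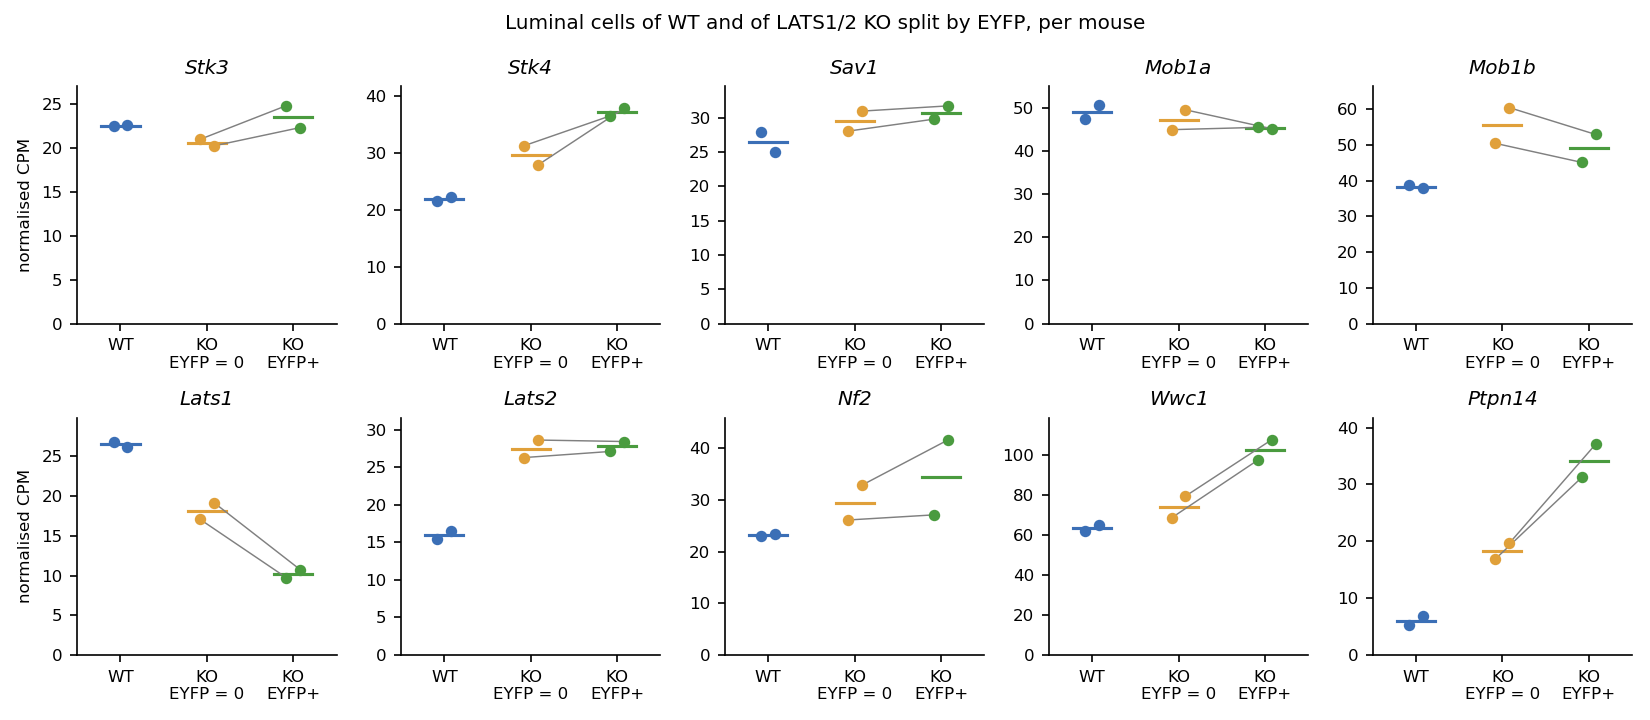
Normalised CPM (TMM over the 6 sums, linear axes from 0) of each gene in WT luminal cells and in EYFP = 0 and EYFP-positive luminal cells of LATS1/2 KO, with 1 point per mouse, a bar at the mean and grey lines joining the sums of 1 mouse. Lats1 fell from 17.1 and 19.2 to 9.73 and 10.7 and Ptpn14 rose from 16.9 and 19.6 to 31.3 and 37.1 between the EYFP classes, while Lats2 stayed between 26.3 and 28.6.

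Myoepithelial cells, which the basal gate is meant to hold, are not the target of Krt8-CreERT2. EYFP was found in 3.33% and 4.8% of gated basal cells in LATS1/2 KO, against 0.518% and 1.23% in WT. Over all libraries, gated basal cells carried a mean of 3.61 luminal markers beside 5.36 basal ones. The paper describes a shift of luminal cells without LATS kinases towards basal traits. Whether such cells entered the basal sums of LATS1/2 KO was not tested. In the basal sums 3 of 10 genes passed, against 30.0% of all genes. Ptpn14 was 101 and 139 in WT and 41.3 and 47.3 in LATS1/2 KO, and fell by 1.42 ± 0.20 on the log2 scale (adjusted p = 0.000256). Wwc1 was 24.1 and 32.6 against 13.6 and 13.5 (log2 -1.05 ± 0.32, adjusted p = 0.0244, from 18 to 32 UMIs per library). Mob1b was 33.5 and 20.8 against 51.4 and 57.0 (log2 0.99 ± 0.26, adjusted p = 0.0118). None of the 3 overlapped between groups, which for genes already called on 2 mice per group is no further support. The share of all genes without overlap was not counted.

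The LATS kinases did not pass in basal cells. Lats1 was 24.1 and 26.7 in WT and 33.3 and 24.9 in LATS1/2 KO (log2 0.18 ± 0.29, adjusted p = 0.679), and Lats2 30.8 and 28.2 against 20.9 and 32.1 (log2 -0.13 ± 0.30, adjusted p = 0.779). Stk3, Stk4, Sav1, Mob1a and Nf2 lay between -0.07 and 0.47 on the log2 scale without passing, but without WT replicate 2 Nf2 passed (log2 1.21, adjusted p = 0.0275). With DESeq2 only Ptpn14 passed (Mob1b adjusted p = 0.122, Wwc1 adjusted p = 0.214), against 1172 of all 9001 genes. The Wwc1 call was also lost without WT replicate 2 (adjusted p = 0.19), without LATS1/2 KO replicate 1 (0.0544) and without replicate 2 (0.0708), and the Mob1b call without WT replicate 2 (0.0692). With free RNA subtracted all 3 passed, Ptpn14 at -1.58, Wwc1 at -1.74 and Mob1b at 1.11, against 2505 of all 8485 genes. With sums thinned to the smallest library 2 of the 10 genes passed, against 1840 of all 7250 genes. Wwc1 did not pass there (log2 -1.10, adjusted p = 0.0889).

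The change of a gene differed between luminal and basal cells for 2 of 10 members, against 14.3% of all genes. Ptpn14 differed by 3.33 ± 0.29 on the log2 scale (luminal minus basal, adjusted p = 2.37e-08) and Lats1 by -1.11 ± 0.33 (adjusted p = 0.028). Wwc1, higher in luminal and lower in basal cells, missed the threshold (1.36 ± 0.47, adjusted p = 0.0553), and with free RNA subtracted it passed (2.09, adjusted p = 0.036). Lats2 did not pass (0.82 ± 0.33, adjusted p = 0.109).

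In endothelial cells 1 of the 9 genes tested passed, against 4.78% of all genes. It was Ptpn14, at 165 and 196 in WT and 52.6 and 50.6 in LATS1/2 KO, from 32 to 56 UMIs per library, which fell by 1.80 ± 0.24 on the log2 scale (adjusted p = 0.00686). Leaving out either LATS1/2 KO library ended the call (adjusted p = 0.159 and 0.0595) at log2 changes of -1.77 and -1.72. Lats2 was 77.2 and 92.7 against 47.0 and 59.7, with no overlap, and did not pass (log2 -0.67 ± 0.30, adjusted p = 0.248). Lats1, on 4 to 23 UMIs, was 20.6 and 30.9 against 21.6 and 12.1 (adjusted p = 0.59).

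The remaining endothelial values give no direction. Stk3, Stk4, Sav1, Mob1a, Mob1b and Nf2 had log2 changes of -0.10 to 0.32 and none passed. Wwc1 was not tested: it had 0 UMIs in both WT sums and 15 and 1 in LATS1/2 KO, where the library with 15 also had the larger share of free RNA (11.6% against 4.20%), and no fold is given. The difference of the effect between luminal and endothelial cells passed for 2 of 10 genes, against 11.8% of all genes: Ptpn14 (3.59 ± 0.34, adjusted p = 1.3e-07) and Lats2 (1.24 ± 0.36, adjusted p = 0.0234, where the median gene stood at -0.31). With free RNA subtracted Lats2 no longer passed (1.23, adjusted p = 0.0539).

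In fibroblasts 8 of the 10 genes were tested and 0 passed, against 5.53% of all genes. At an unadjusted p under 0.05 there was 1, Sav1, against 1815 of all 8444 genes. DESeq2 called 0 of the 8, against 398 of all genes. Sav1 was 22.1 and 40.2 in WT, on 5 and 4 UMIs, and 68.9 and 85.5 in LATS1/2 KO, on 117 and 401 UMIs. The groups did not overlap (log2 1.46 ± 0.44, adjusted p = 0.0842), and the gene passed without LATS1/2 KO replicate 1 (adjusted p = 0.0112). Lats1 was 26.5 and 50.3 against 40.0 and 32.8, and Lats2 44.2 and 30.2 against 45.9 and 40.5, with overlap in both. Wwc1 and Ptpn14, with 0 to 2 UMIs in WT, were too low to test.

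The Sav1 effect differed between luminal cells and fibroblasts (-1.59 ± 0.45, adjusted p = 0.0189), the only one of the 10 genes for which it did, against 13.6% of all genes, with the median gene at -0.36.

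Of 40 other Hippo pathway genes, 38 were tested in luminal cells, and 17 rose and 3 fell, 52.6% against the 59.1% of all genes. Their median log2 change was 0.28, that of the 10 genes 0.44 and that of all genes 0.00. All 5 membrane scaffolds rose, led by Amot (angiomotin, which binds YAP and NF2; log2 3.22 ± 0.15, adjusted p = 0.000193). Among RASSF and LIM-domain proteins 2 of 5 rose, led by Ajuba, which binds LATS kinases (log2 3.55 ± 0.12, adjusted p = 9.49e-05). Of the STRIPAK complex, a phosphatase assembly that acts on MST kinases, 5 of 9 rose, with Strn at 1.52 ± 0.09 (adjusted p = 0.000312), and 1 fell. Fat4, an atypical cadherin, rose by 1.99 ± 0.39 (adjusted p = 0.00822).

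Of 10 MAP4K and TAO kinases, which can act beside or on the MST kinases, 2 rose, with Map4k4 at 0.95 ± 0.09 (adjusted p = 0.000873), and 1 fell. Of 6 polarity genes tested 2 rose, with Llgl2 at 0.72 ± 0.12 (adjusted p = 0.00455), and 1 fell. Neither NDR kinase passed. Between EYFP-positive and EYFP = 0 cells 13 of the 38 were higher and 4 lower, 44.7% against 39.4% of all genes, and Amot (1.42 ± 0.07, adjusted p = 1.2e-07) and Ajuba (1.02 ± 0.08, adjusted p = 4.02e-06) were again the largest rises of their roles, while Tnik (-0.89 ± 0.15, adjusted p = 0.000655) and Stk38 (-0.46 ± 0.10, adjusted p = 0.003) were lower. DESeq2 called 9 of the 38 there, against 2030 of all 13094 genes, and not Stk38 (adjusted p = 0.0607).

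In basal cells 6 of 35 passed, 4 higher and 2 lower, 17.1% against 30.0% of all genes. The scaffold Frmd6 fell by 1.64 ± 0.17 (adjusted p = 2.16e-05), Map4k4 rose by 1.37 ± 0.17 (adjusted p = 0.00011), Rassf1 by 0.81 ± 0.20 (adjusted p = 0.00811) and Mob4 by 0.66 ± 0.18 (adjusted p = 0.0163). With DESeq2 3 of the 6 kept their call, Frmd6, Map4k4 and Rassf1, and Mob4 did not (adjusted p = 0.177). In fibroblasts 2 of 31 passed, 6.45% against 5.53% of all genes, namely Map4k4 (1.77 ± 0.30, adjusted p = 0.00736) and Stk38 (2.03 ± 0.40, adjusted p = 0.0154). In endothelial cells, where 4.78% of all genes passed, 0 of 28 did by edgeR or DESeq2. At an unadjusted p under 0.05 there were 4, against 1446 of all 6815 genes. In the difference of effect between ER- and ER+ luminal cells 13 of 38 passed, 34.2% against 22.9% of all genes, 1 higher and 12 lower, and all 5 membrane scaffolds were among the lower, with a smaller rise or a larger fall in ER- than in ER+ cells.

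The genes whose level most resembled the LATS kinases were sought over the 18 sums of lineage and library with at least 20 cells, among 8768 genes of at least 10 CPM on average. For Lats1 they were Cacna1a, Fgfr1 and Hspa13, with Pearson correlations of log2(CPM + 1) of 0.81, 0.80 and 0.79. For Lats2 they were Atp2b4 (0.92), Aida (0.90) and Stoml1 (0.90). The sums share libraries, so these values describe likeness only.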

How the data were processed

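Droplet-based 3′ single-cell RNA sequencing (10x Genomics) was done on live-sorted cells of dissociated mammary glands, with 1 library per mouse, 2 WT and 2 LATS1/2 KO. The deposited matrices list unnormalised UMI counts for every barcode, which the authors obtained from Cell Ranger. The file headers name version 6.1.2 and the submitters' processing notes 3.1.0 with mm10, and the conflict could not be settled.

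The study's own cell filter was applied (over 500 genes, less than 20% of UMIs from mitochondrial genes). No doublets were removed. Each cell was gated by 10 markers per lineage. Of the 16691 cells gated to the 5 lineages, 98.4% were placed as clustering did (16 clusters, scanpy 1.11.5). The clusters were named by the same markers. The 10 genes and the lists were chosen with earlier results of these data known. Counts were summed per lineage and library and tested with edgeR 4.0.16 in R 4.3.3 (filterByExpr, TMM, quasi-likelihood F test, two-sided, Benjamini-Hochberg over all genes tested, threshold 0.05). WT and LATS1/2 KO were compared by condition alone. Comparisons within mice (lineages, EYFP classes) and differences of effects had the mouse as a block. Lineages with under 20 cells in any library were not tested, which left out macrophages. SEs are the log2 change divided by the root of F. With 2 mice per group an exact permutation test of 1 gene cannot go below p = 0.333. The tests were tried on simulated counts first. The named genes are the 10 members in every comparison, the listed Hippo genes by counts with the largest called change per role, and the 3 genes most like Lats1 and Lats2. Every deposited matrix was used.

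In the labels, same-numbered WT and LATS1/2 KO libraries shared only a number. Replicates differed by more than counting noise in each lineage, so none was merged. Promoters are from RefSeq (GRCm38.p6) and gene positions from GENCODE (GRCm38). Alternatives were other size factors, library totals only, DESeq2 1.42.0, no filter, a replicate block, leaving out each library, a 10% mitochondrial limit, lineages by cluster, subtracted free RNA, thinned sums and luminal subtypes. Intervals and floors cover counting error only.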

Additional observations from a re-analysis of the deposited data

Results flagged for a closer look

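The following differences between the LATS1/2 KO effects of 2 cell classes passed edgeR's quasi-likelihood test of the difference itself, with Benjamini-Hochberg adjustment, 2 mice per group and the mouse as a block. No explanation was weighed.

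Ptpn14 differed most: its log2 change from WT to LATS1/2 KO was 3.33 higher in luminal than in basal cells and 3.59 higher in luminal than in endothelial cells, since it rose in luminal cells and fell in both other lineages. Lats1 was lowered in luminal but not detectably in basal cells, a difference of -1.11. Lats2 had a change 1.24 higher in luminal than in endothelial cells, where its own fall did not pass and the median gene differed by -0.31. With free RNA subtracted the Lats2 difference no longer passed (adjusted p = 0.0539). Sav1 had a change 1.59 lower in luminal cells than in fibroblasts (a difference of -1.59), where WT levels rest on 5 and 4 UMIs.

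Within the luminal lineage, 4 genes differed between ER- and ER+ cells. The differences, ER- minus ER+, were -0.93 for Lats1, 0.69 for Stk3, 0.56 for Stk4 and -0.52 for Mob1b. This comparison was added after the data were seen, and the ER+ sums of LATS1/2 KO hold 424 and 152 cells. The Mob1b difference missed the threshold without the mouse as a block (adjusted p = 0.0553).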

How the results depend on the processing

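Over the 117 values of single genes and their 799 alternatives, no called direction was reversed, 25 alternatives ended a call and 17 made one, and 53 values without a call changed sign. The cause of each was not tested. The counts of genes and members called that moved by over 1.5 times are given below.

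With DESeq2 the genes called were 1172 in basal cells (1 of the 10 members), 2030 between EYFP classes, and 2182 and 1557 for WT luminal against basal cells and fibroblasts. In luminal ER+ cells alone 3757 genes were called. Without a filter on low counts fibroblasts gave 867 genes and 1 member, and with sums thinned to the smallest library 257, with no member left to test. Lineages by cluster gave 493 genes in endothelial cells. Without the mouse as a block the EYFP classes gave 967 genes and 2 members, and WT luminal against endothelial cells 2969 genes. EYFP = 0 against EYFP-positive cells thinned to 2000 UMIs gave 2928 genes. With free RNA subtracted 1 member differed in effect between luminal and endothelial cells.

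With the replicate number as a block (replicate block) fibroblasts gave 977 genes and 1 member, Sav1, and endothelial cells 900 genes. In luminal and basal cells the replicate block gave 7606 and 2791 genes, with 6 and 3 members. Correlations of the deviations of same-numbered libraries were -0.07 (luminal), 0.07 (basal), 0.01 (fibroblast) and 0.04 (endothelial). Each rests on a single difference per group, so whether same-numbered mice were linked cannot be read from it.

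Leaving out 1 library gave 6497 to 7272 genes and 4 to 7 members in luminal cells, 2084 to 2401 and 2 to 3 in basal cells, 55 to 622 and 0 to 1 in fibroblasts, and 0 to 815 and 0 to 1 in endothelial cells. There, 0 genes were called without LATS1/2 KO replicate 1, with 596 at an unadjusted p under 0.05, and 91 without replicate 2. In fibroblasts 55 were called without WT replicate 1 and 64 without WT replicate 2. The lone library of a group is then assumed to vary like the others. WT stromal sums (23 to 57 cells) limit what could be detected. In simulated counts with gene-wise dispersions, more luminal calls were false than the threshold allows.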

Other observations

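Lymphocytes were gated out of the comparisons, and their values are given without a test. Stk4 was at 219 and 155 CPM in the WT lymphocyte sums (91 and 27 UMIs, 132 and 54 cells), with exact Poisson intervals of 176 to 269 and 102 to 226 CPM that cover counting error only. In LATS1/2 KO lymphocytes it was at 96.4 and 177 CPM, on 3 and 19 UMIs. The WT values stand above those of WT luminal, basal, fibroblast and endothelial sums, the highest of which was 20.4 CPM. The WT perivascular gate, with 9 and 2 cells, held 1 and 2 Stk4 UMIs and gave no usable level. Lats2 was at 72.1 and 86.3 CPM in WT lymphocytes, near its level in WT endothelial cells, while Lats1 was at 24.0 and 28.8 CPM. Stk3, the paralogue of Stk4, gave 0 and 1 UMIs in the WT lymphocyte sums.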
